A study of Mus musculus with 2 samples.

Results

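The genes described here encode the proteins that carry metabolites and proteins across the mitochondrial membranes, together with a few that shape the mitochondrial network. They were taken by name from the deposited table of mouse liver genes: every symbol starting with Slc25a (carriers), the numbered Timm and Tomm genes (import), the numbered Vdac genes (channels), and Mfn1, Mfn2, Opa1, Dnm1l and Fis1 (dynamics). This gave 47 of the 8551 listed genes, of which 28 were carriers, 12 import genes, 3 channels and 4 dynamics genes. Dnm1l, Slc25a3, Slc25a5, Tomm20 and Timm23 were not analysed here.

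Liver was compared between male wild type mice and male db/db mice, both labelled as C57BL/6 and 9 weeks old. The leptin receptor gene is mutated in every tissue of the db/db mouse, so that obesity and diabetes develop together, and the comparison cannot separate them. The authors name more than 1 supplier of the mice and do not state clearly which group came from which. A difference between suppliers could not be separated from genotype either. Livers were taken about 3 h after lights on. There was 1 library per group, made from poly(A) RNA cut with Dpn II into short sequence tags, and the sources used here do not state whether RNA of several mice was combined.

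The inner mitochondrial membrane is closed to most solutes, and the SLC25 carriers exchange citrate, malate, amino acids, acylcarnitines, nucleotides and cofactors across it. In hepatocytes these exchanges connect the matrix with gluconeogenesis, urea synthesis, lipogenesis and fatty acid oxidation in the cytosol. Nearly all mitochondrial proteins are made in the cytosol and enter through the TOM complex of the outer membrane, with small TIM chaperones, the TIM22 complex and the TIM23 complex taking over behind it. VDACs are the pores of the outer membrane for small solutes. Mitofusins and Opa1 fuse the outer and inner membranes, and Fis1 is an outer membrane protein linked to fission.

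A level is given in TPM, which the authors computed as the tags of a gene per 1000000 clean tags of its library, with no term for transcript length. Levels of different genes are therefore not compared. The values rose in steps of 1 tag, 0.0973 TPM in normal and 0.0740 TPM in diabetic liver, from which the reads were counted. The steps gave 10278530 clean tags for the normal and 13508232 for the diabetic library. A difference is the log2 ratio of the diabetic over the normal level, with a 95% Clopper-Pearson interval from the reads that covers counting error only. A gene is called higher or lower where it differed at least 1.5-fold with a false discovery rate (FDR) under 0.001 in an exact binomial test on the reads, adjusted over all listed genes. Where 2 levels or read numbers of a gene are given, the normal library comes first. With no replicate library, these calls compare the 2 libraries and not the conditions. The median log2 ratio of all listed genes was 0.25 and not 0, and 4 other scalings took 0.26 to 0.31 off each log2 ratio.

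What the tags of these genes look like can be read from their transcripts. Dpn II cuts at GATC, and the tag protocol reads the bases next to a cut. The last site of each RefSeq-paired GENCODE transcript (GRCm38) was therefore taken with the bases after it, 20 in all, as a predicted tag. All 47 genes had such a site, at a median of 299 bases from the transcript end, and for 46 of them the predicted tag was found after no GATC of another gene. The exception was Tomm6, whose tag also stood in the gene model Gm21981. The deposited table does not hold tags, so which sites were counted was not tested. The tags of the genes with at least 1000 reads in each library, of all 3 channels and of Fis1, a dynamics gene called higher, are shown with the cutting site in capitals.
Slc25a10: GATCtaataaaccaagtggc
Slc25a39: GATCgcccttttttgtatcc
Slc25a1: GATCctaaagaatgaggggc
Slc25a25: GATCaatgcaaaaatcaccg
Timm8b: GATCgtacagaaaggagggc
Tomm6: GATCctacctgagtggcagc
Vdac1: GATCtcaactgactcctctt
Vdac2: GATCagtggctgttttaaga
Vdac3: GATCtatccaatgggaggtc
Fis1: GATCtgaagaattttgaaag
The Slc25a10 transcript, on chromosome 11, had 1 site, 47 bases from its end. The Vdac2 transcript, on chromosome 14, had 5 sites, and the last lay 299 bases from the end. The sites of Vdac1 (chromosome 11) and Vdac3 (chromosome 8) lay 158 and 271 bases from the end.

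Of the 47 genes, 17 were called higher in the diabetic liver, 2 were called lower and 28 were not called. Over all listed genes, 22.9% were called higher and 8.19% lower, against 36.2% and 4.26% of these genes. By the fold alone, 21 were at least 1.5-fold higher and 3 at least 1.5-fold lower, where 34.4% and 15.3% of all listed genes were. The median log2 ratio was 0.48. After scaling by trimmed mean of M values (TMM), it was 0.23, and 15 genes (31.9%) were past 1.5-fold upward and 6 (12.8%) downward, against 23.9% and 23.8% of all listed genes. The median of the 47 was 167 normal reads, and 14 of the 47 had fewer than 50 reads in at least 1 library.

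**Figure D1:**
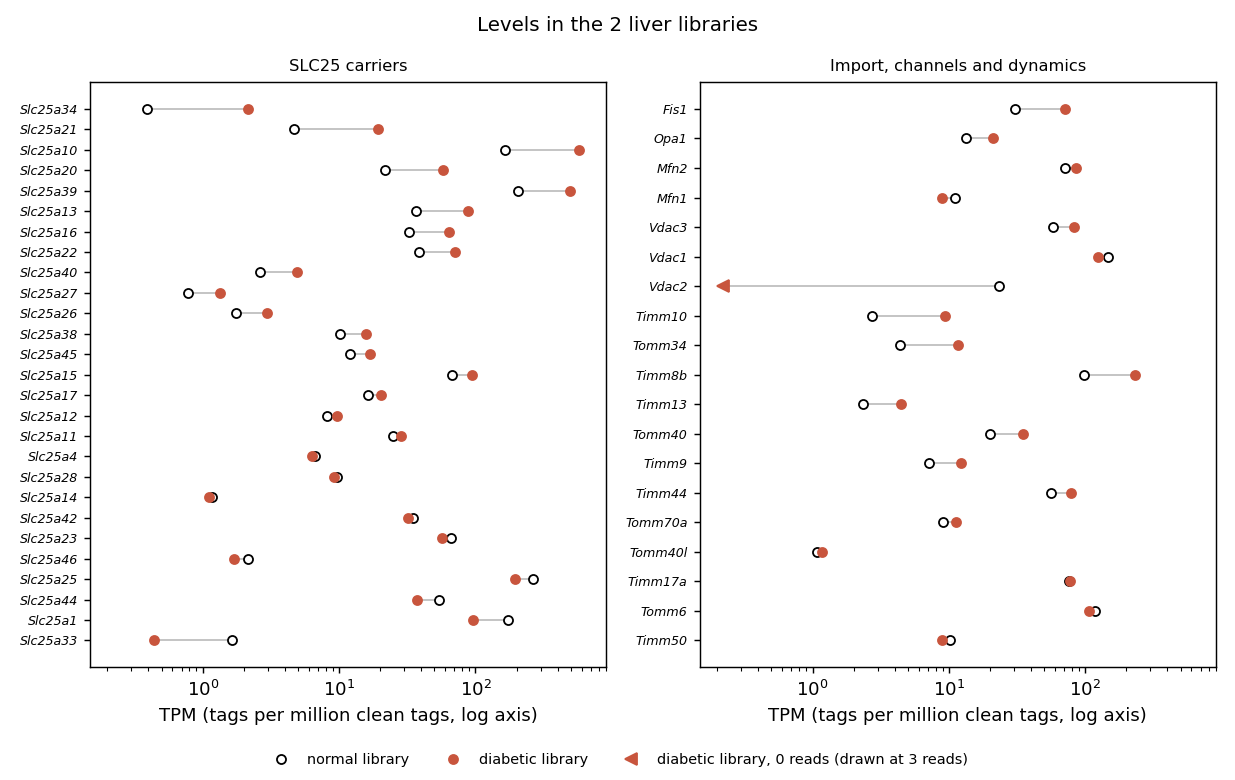
Level of 46 of the 47 genes in TPM (log axis) in the normal library (open circles) and the diabetic library (filled circles), ordered within each group by the ratio. Slc25a10 and Slc25a39 lie farthest right among the filled circles, at 579 and 490 TPM, and the triangle marks Vdac2, which had 0 reads in the diabetic library and is drawn at 3 reads.

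Summed over the 47 genes, the level was 2018 TPM in normal and 2990 TPM in diabetic liver, a 1.48-fold difference. The carriers made up most of it and went from 1260 to 2011 TPM. Without Slc25a10 and Slc25a39, a pair chosen after the values were seen, the carriers summed to 893 TPM in normal and 942 TPM in diabetic liver. Their log2 ratio was then 0.08 (95% interval, 0.04 to 0.12), which lay under the median of all listed genes. In whole liver, fewer cells of a type and less RNA per cell cannot be told apart.

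Among carriers of dicarboxylates and tricarboxylates, the differences went in opposite directions. Slc25a10, the dicarboxylate carrier that exchanges malate or succinate for phosphate, was at 163 TPM in normal and 579 TPM in diabetic liver. It was called higher, with a log2 ratio of 1.83 (95% interval, 1.75 to 1.90). Slc25a1, the citrate carrier that exports citrate for lipogenesis, was at 172 TPM in normal and 96.2 TPM in diabetic liver. It was the only carrier called lower, with a log2 ratio of -0.84 (95% interval, -0.94 to -0.73). The log2 ratios of these carriers lay 2.66 apart (95% interval, 2.53 to 2.79), a gap that no scaling changes. Slc25a11, the oxoglutarate carrier of the malate-aspartate shuttle, was at 24.9 TPM in normal and 28.6 TPM in diabetic liver. Its log2 ratio of 0.20 had an interval that included 0 and was below 0 under each of the 4 other scalings. Slc25a21, which carries oxodicarboxylates of lysine and tryptophan breakdown, had 48 and 259 reads and was called higher at 4.10-fold.

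The aspartate-glutamate carriers, the other arm of that shuttle, are encoded by a pair of paralogs. Slc25a13, citrin, which is the liver form and supplies aspartate to the urea cycle, rose from 36.9 to 88.2 TPM between the normal and diabetic libraries, 2.39-fold. Slc25a12, aralar, the form of brain and muscle, had 84 and 131 reads and was not called, with a log2 ratio of 0.25 (95% interval, -0.16 to 0.66) that was below 0 under each other scaling. The log2 ratio of citrin exceeded that of aralar by 1.01 (95% interval, 0.56 to 1.45). Slc25a15, the ornithine carrier of the urea cycle, was at 66.9 TPM in normal and 93.6 TPM in diabetic liver, 1.40-fold higher and under the threshold. Slc25a22, a glutamate carrier, was at 38.2 TPM in normal and 71.3 TPM in diabetic liver and was called higher, 1.86-fold.

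Slc25a20, the carnitine-acylcarnitine carrier that brings long-chain fatty acids into the matrix for oxidation, was at 21.8 TPM in normal and 58.0 TPM in diabetic liver. It was called higher, with a log2 ratio of 1.41 (95% interval, 1.20 to 1.63). Slc25a16 and Slc25a42 have both been linked to coenzyme A in the matrix. Slc25a16 was called higher at 1.95-fold, from 32.8 TPM in normal to 63.9 TPM in diabetic liver. Slc25a42 was at 34.5 TPM in normal and 32.1 TPM in diabetic liver and was not called. Slc25a17, the carrier of this family that sits in peroxisomes, had 167 and 273 reads, a log2 ratio of 0.31.

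Carriers of cofactors were higher or not called. Slc25a39, which is needed for glutathione in the matrix, was at 204 TPM in normal and 490 TPM in diabetic liver, 2.41-fold higher. Its paralog Slc25a40 had 27 and 66 reads and was 1.86-fold higher without being called. Slc25a38, a glycine carrier of heme synthesis, was at 10.2 TPM in normal and 15.8 TPM in diabetic liver and was called at 1.54-fold, the nearest to the threshold of the called members, and the call was lost under each other scaling. Slc25a28, mitoferrin 2, which carries iron, had 99 and 124 reads, a log2 ratio of -0.07. The S-adenosylmethionine carrier Slc25a26 had 18 and 40 reads, too few for a call at 1.69-fold.

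The nucleotide carriers named in this paragraph were not among the genes called higher, and Slc25a5 was not analysed here. Slc25a4, the ADP/ATP carrier of heart and muscle, had 68 reads in the normal and 86 in the diabetic library, which is 6.62 and 6.37 TPM. Slc25a25 and Slc25a23 encode calcium-regulated carriers that exchange ATP-Mg for phosphate. Slc25a25 was at 265 TPM in normal and 195 TPM in diabetic liver, a log2 ratio of -0.44 (95% interval, -0.52 to -0.36) that was past 1.5-fold under each of the 4 other scalings. Slc25a23 was at 65.7 TPM in normal and 57.3 TPM in diabetic liver, a log2 ratio of -0.20 (95% interval, -0.35 to -0.05). Slc25a33, a pyrimidine nucleotide carrier, had only 17 reads in the normal and 6 in diabetic liver. Its log2 ratio of -1.91 had an interval of -3.53 to -0.49, and it was not called.

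Slc25a44, a carrier of branched-chain amino acids, was at 53.8 TPM in normal and 37.2 TPM in diabetic liver. Its log2 ratio of -0.53 (95% interval, -0.71 to -0.36) stayed within 1.5-fold as deposited and was past it under each of the 4 other scalings. Slc25a34, whose substrate is not well described, had the highest ratio of the carriers, but on 4 and 29 reads. Its log2 ratio of 2.46 had an interval of 0.95 to 4.43, and its call was lost under each other scaling. The carriers Slc25a14, Slc25a27, Slc25a45 and Slc25a46 were not called, and their log2 ratios were -0.08, 0.77, 0.49 and -0.33. The first, second and last of these had at most 23 reads in either library.

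**Figure D2:**
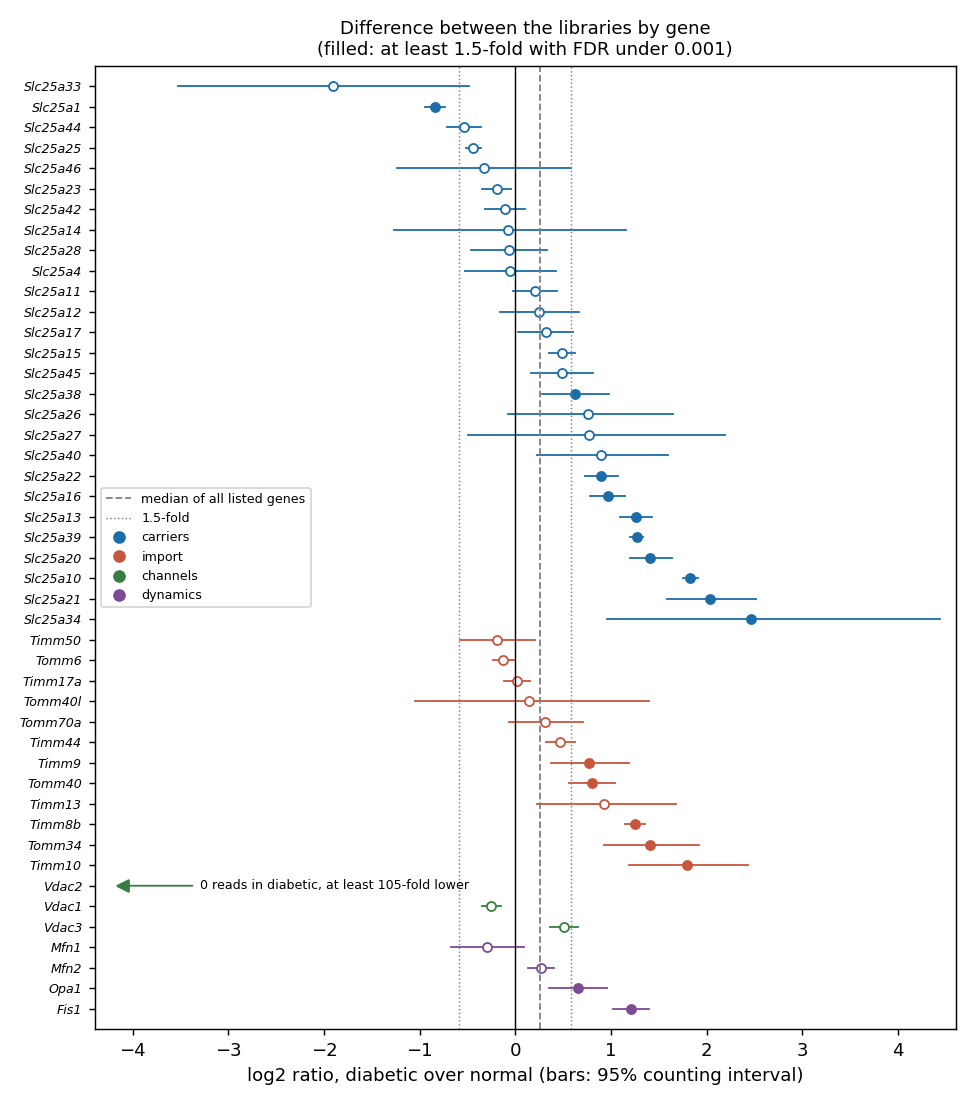
Log2 ratio of 46 of the 47 genes, diabetic over normal, each with its 95% counting interval, by group (filled: at least 1.5-fold with an FDR under 0.001; dotted lines: 1.5-fold; dashed line: median of all listed genes, 0.25). Intervals are widest for genes with few reads, such as Slc25a34 and Slc25a33, and the arrow for Vdac2 leaves the axis, since it had 0 reads in the diabetic library.

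Of the 12 import genes, 5 were called higher (41.7%) and 0 lower, against 22.9% and 8.19% of all listed genes. By the fold alone, 6 were at least 1.5-fold higher (50%, against 34.4%), and the median log2 ratio was 0.62. Under TMM scaling the median was 0.37, with 4 genes (33.3%) past 1.5-fold upward and 0 downward, against 23.9% and 23.8% of all listed genes. The small TIM proteins, which guide hydrophobic proteins through the space between the membranes, gave 3 of these 5 calls. Timm8b was at 97.3 TPM in normal and 231 TPM in diabetic liver, a log2 ratio of 1.25 (95% interval, 1.14 to 1.35). Timm10 had 28 and 127 reads and was called higher at 3.46-fold, and Timm9 had 74 and 166 reads and was called at 1.71-fold, a call that was lost under each other scaling. Timm13, with 24 and 60 reads, was 1.91-fold higher but was not called. The 4 small TIM genes together went from 110 TPM in normal to 257 TPM in diabetic liver, with a log2 ratio of 1.23 (95% interval, 1.13 to 1.33).

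None of the 3 inner membrane translocase genes was called. Timm17a, a channel-forming subunit of TIM23, was at 76.1 TPM in normal and 77.0 TPM in diabetic liver, and its log2 ratio was below 0 under each other scaling. Timm50, a receptor of the same complex, had 105 and 121 reads, a log2 ratio of -0.19 with an interval that included 0. Timm44, which anchors the import motor, was at 56.4 TPM in normal and 78.2 TPM in diabetic liver, 1.39-fold higher and not called.

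In the outer membrane, Tomm40, the pore of the TOM complex, was at 19.9 TPM in normal and 34.7 TPM in diabetic liver. It was called higher at 1.74-fold, and lay under 1.5-fold after each other scaling. Tomm6, a small subunit of the same complex, was at 117 TPM in normal and 107 TPM in diabetic liver, with a log2 ratio of -0.13 (95% interval, -0.24 to -0.02). Tomm70a, a receptor for carrier precursors, had 93 and 152 reads, a log2 ratio of 0.31. Tomm34, a cytosolic cochaperone of precursor proteins rather than a membrane subunit, had 45 and 157 reads and was called higher at 2.65-fold. Tomm40l, a paralog of the pore, had 11 and 16 reads.

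Of the 3 channels, 0 were called higher and 1 (Vdac2, 33.3%) lower, against 22.9% and 8.19% of all listed genes. Counts out of 3 genes say little about the group. Vdac1 was at 147 TPM in normal and 124 TPM in diabetic liver, a log2 ratio of -0.25 (95% interval, -0.35 to -0.15), within 1.5-fold. Vdac3 was at 58.0 TPM in normal and 82.2 TPM in diabetic liver, a log2 ratio of 0.50 (95% interval, 0.36 to 0.65), also within 1.5-fold. The log2 ratio of Vdac3 exceeded that of Vdac1 by 0.76 (95% interval, 0.58 to 0.94) whatever the scaling. Vdac2, which also binds the apoptosis effector Bak, had 241 reads and 0 reads. With 0 reads, a level of up to 0.222 TPM (3 reads) is still allowed in the diabetic library, against which the normal level of 23.4 TPM makes the gene at least 105-fold lower. Its 95% counting interval reached up to a log2 ratio of -6.41, a somewhat smaller difference than that bound. Whether the mice differ in sequence at the counted tag was not tested. The 3 channels summed to 229 TPM in normal and 206 TPM in diabetic liver, and Vdac1 and Vdac3 alone to 205 and 206 TPM. The log2 ratio of that pair was 0.00 (95% interval, -0.08 to 0.09), and -0.15 with Vdac2 (95% interval, -0.23 to -0.07).

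Among all listed genes, 19 had at most 3 reads in the diabetic and at least 20 in the normal library, and Vdac2 had the most normal reads of them. None of the other 46 genes described here was at 3 reads or fewer in either library.

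Of the 4 dynamics genes, Fis1 and Opa1 were called higher (50%) and 0 lower, against 22.9% and 8.19% of all listed genes. The mitofusins were not called. Fis1 was at 30.6 TPM in normal and 70.4 TPM in diabetic liver, a log2 ratio of 1.20 (95% interval, 1.02 to 1.39). Opa1, the inner membrane fusion GTPase, was at 13.3 TPM in normal and 20.9 TPM in diabetic liver, 1.57-fold higher, and lay under 1.5-fold after each other scaling. Mfn2 was at 70.9 TPM in normal and 85.4 TPM in diabetic liver, a log2 ratio of 0.27 that was below 0 under median-ratio and upper-quartile scaling. Mfn1 had 113 and 121 reads, a log2 ratio of -0.29 (95% interval, -0.68 to 0.09). The log2 ratio of Fis1 exceeded that of Mfn2 by 0.94 (95% interval, 0.71 to 1.17). This pair, like those above, was among 13 chosen after the values were seen.

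**Figure D3:**
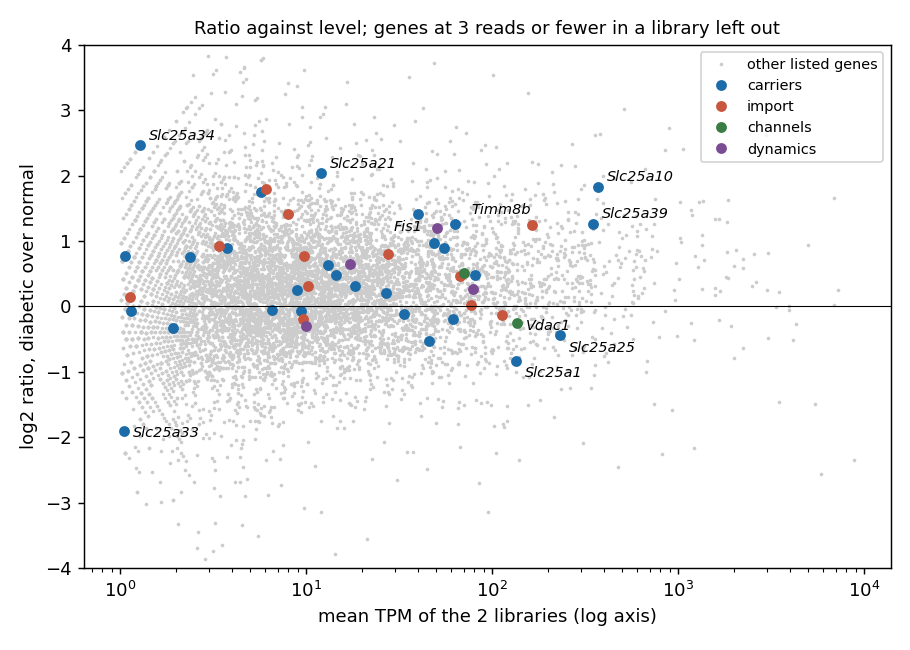
Log2 ratio, diabetic over normal, against the mean TPM of both libraries (log axis) for these genes (coloured by group) and all other listed genes (grey); genes with 3 reads or fewer in a library, Vdac2 among them, and log2 ratios beyond 4 are not drawn. At mean levels near 1 TPM the spread of all genes is wide, which is where Slc25a33 and Slc25a34 lie, while Slc25a10, Slc25a39 and Timm8b lie at 1.83, 1.27 and 1.25 on the log2 axis.

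Other genes of the same processes were counted from lists of known members. Of 17 listed genes of import and protein maturation outside the naming rule, 7 were called higher (41.2%) and 0 lower. Over all listed genes, 22.9% were called higher and 8.19% lower. The median log2 ratio of the 17 was 0.58. Samm50, which inserts beta-barrel proteins such as VDACs into the outer membrane, had 199 reads in the normal and 993 in the diabetic library, 3.80-fold. The processing protease subunit Pmpcb and the inner membrane protein Romo1 were called higher at 1.79-fold and 1.84-fold, and the import motor component Dnajc19 was at 1.49-fold and not called. Under TMM scaling Pmpcb, at a log2 ratio of 0.58, lay just under 1.5-fold. Of 14 listed genes of dynamics and cristae, 9 were called higher (64.3%) and 0 lower, against 22.9% and 8.19% of all listed genes. The median log2 ratio of the 14 was 1.00. Among them Phb2, a prohibitin, and March5, an outer membrane ubiquitin ligase, were called higher at 2.42-fold and 2.09-fold. Immt, the core of the cristae junction complex, had 1200 and 1595 reads, a log2 ratio of 0.02.

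Of 8 listed inner membrane transporters outside the SLC25 family, 4 were called higher (50%) and 0 lower. Over all listed genes, 22.9% were called higher and 8.19% lower. The median log2 ratio of the 8 was 0.53. Mpc2, a subunit of the pyruvate carrier listed as Brp44, had 3296 and 7041 reads and was called higher at 1.63-fold, and the inner membrane protein Ghitm was at 106 TPM in normal and 238 TPM in diabetic liver. Of the SLC25 family members listed under other symbols, Mtch1 and Mcart1 were called higher at 2.29-fold and 1.68-fold, and AI132487 (Slc25a47) was at 1.27-fold and not called. Under TMM scaling Brp44 and Mcart1 lay under 1.5-fold, with log2 ratios of 0.45 and 0.49. Of 7 listed partners of the channels at the outer membrane, 1 was called higher (14.3%, against 22.9% of all listed genes) and 0 lower, and their median log2 ratio was 0.17. That gene was Ppif, cyclophilin D of the permeability transition, at 1.78-fold, while Bax and Tspo had log2 ratios of -0.16 and 0.33. Under TMM scaling the median of these 7 was -0.09, with 0 past 1.5-fold upward and 2 downward, and Ppif lay just under that fold at a log2 ratio of 0.58.

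Set beside other nuclear genes of mitochondria, these genes had a median between those of the ribosome and the respiratory chain. Of 52 subunits of oxidative phosphorylation, 61.5% were called higher, with a median log2 ratio of 0.72, or 0.47 under TMM scaling. Of 52 mitochondrial ribosomal proteins, 34.6% were called higher, with a median of 0.41, or 0.15 under TMM scaling. Against these, 36.2% of the 47 genes were called higher, with a median of 0.48, or 0.23 under TMM scaling. Over all listed genes, 22.9% were called higher, with a median of 0.25, or -0.002 under TMM scaling. Called lower were 1.92% of either set of 52, 4.26% of the 47 genes and 8.19% of all listed genes. The range within each set was wider than the distance between their medians, and no test of the difference between sets was made.

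**Figure D4:**
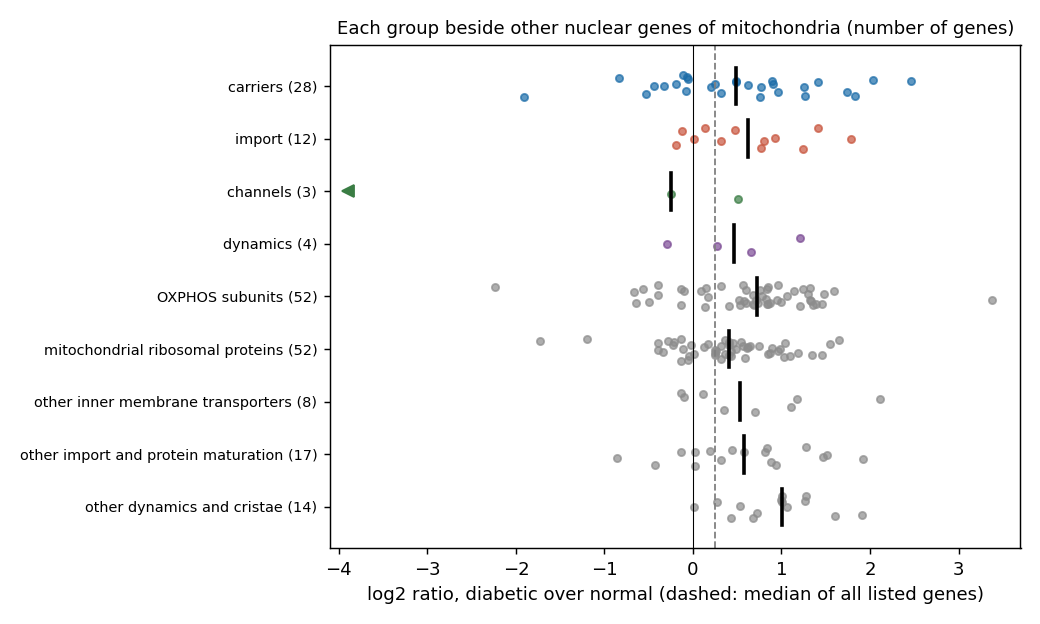
Log2 ratio, diabetic over normal, of each gene (points) in the 4 groups described and in 5 other sets of nuclear genes of mitochondria, with the number of genes in brackets; black bars are medians and the dashed line is the median of all listed genes. The medians run from -0.25 for the channels to 1.00 for the other genes of dynamics and cristae, and the triangle is Vdac2, beyond the axis.

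The liver label was checked on markers. Of 12 hepatocyte markers 9 were listed, all with at least 624 reads in each library. Their median log2 ratio was 0.00, or -0.26 under TMM scaling, and they ran from -1.07 (Hnf4a) to 1.28 (Cps1). Of the 9, 2 were called higher (22.2%) and 1 lower (11.1%), against 22.9% and 8.19% of all listed genes. Markers of macrophages summed to 327 TPM in normal and 194 TPM in diabetic liver, over 8 of 11 listed. Of the 8, 4 were called lower (50%) and 1 higher (12.5%), against 8.19% and 22.9% of all listed genes. Most of the difference between the sums was C1qa, at 176 TPM in normal and 50.7 TPM in diabetic liver, while Cd5l was at 64.7 and 62.9 TPM. Endothelial markers summed to 152 and 132 TPM (10 of 10 listed), stellate markers to 136 and 185 TPM (7 of 9) and cholangiocyte markers to 61.5 and 107 TPM (3 of 6) in the same order. Of the cholangiocyte sums, Spp1 alone gave 57.2 TPM in normal and 103 TPM in diabetic liver. Of the muscle markers 0 of 6 were listed, of the erythroid markers 1 of 6 (Alas2), of the lymphocyte markers 1 of 8 (Cd79b) and of the adipocyte markers 2 of 7 (Cfd and Cidea). Both listed adipocyte markers were called higher, against 22.9% of all listed genes, Cfd with 5 and 160 reads and Cidea with 0 and 95 reads. The adipocyte markers Adipoq, Lep, Plin1, Retn and Ucp1 were not listed. The part of these cells in the differences above was not tested.

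The promoters of these genes were searched for motifs of factors known to act on nuclear genes of mitochondria. Of the 47 genes, 39 had RefSeq windows (GRCm38.p6) from 250 bases before to 50 after a start, 53 in all. The ETS motif CCGGAAGT, on either strand, stood in 11.3% of these windows and in 3.89% of all 32851 RefSeq windows. Those 32851 windows were not limited to the listed genes. The NRF1 core TGCGCATG stood in 3.77% against 2.12%, the YY1 motif AAGATGGC in 1.89% against 2.75%, and the ERR motif TCAAGGTCA in 1.89% against 0.423%. A match is a run of letters and not a bound site, and the ETS share rests on 6 windows of 5 genes, Fis1, Slc25a20, Timm10, Mfn1 and Tomm70a. Of these, Fis1, Slc25a20 and Timm10 were called higher, and Mfn1 and Tomm70a were not called. As examples from genes called higher, a stretch of 100 bases that lies upstream of the start and ends short of it is shown for Slc25a20 and Timm8b. The stretch of Slc25a20 (chr9:108662011-108662110, plus strand, GRCm38.p6) has its ETS match in capitals, beginning 79 bases before the start. That of Timm8b (chr9:50603776-50603875, plus strand, GRCm38.p6) has the single ERR match in capitals, beginning 96 bases before the start.
Slc25a20: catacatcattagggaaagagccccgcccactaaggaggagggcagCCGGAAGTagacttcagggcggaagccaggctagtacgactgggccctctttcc
Timm8b: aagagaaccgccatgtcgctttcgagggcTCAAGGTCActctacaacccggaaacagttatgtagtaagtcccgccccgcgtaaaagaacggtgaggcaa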

How the data were processed

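The authors cut poly(A)-derived cDNA with Dpn II, sequenced tags, compared clean tags with RefSeq and deposited 1 RPM value per gene and library (tags per 1000000 clean tags, called TPM), with 0.01 in place of 0 and genes under a mean of 1 TPM left out. The submitters' processing notes name the build mm9. The aligner and the handling of tags common to several genes are not given in the sources used here.

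Reads were recovered from the equal steps of the deposited values. Within rounding to 2 decimals, 8513 of 8513 values of the normal and 8535 of 8537 of the diabetic library above the placeholder were whole. Fold changes came from the deposited values, with a gene at 3 reads or fewer set to 3 reads, and the FDR from exact binomial tests, two-sided, 1 per gene, with Benjamini-Hochberg adjustment over 8551 genes. The code was tested on simulated data. The members, lists and promoter motifs were chosen with earlier results of these data known. Named are the called genes, those averaging 50 TPM or more, those at 3 reads or fewer, the channels and dynamics genes, a fixed set of liver carriers and import genes, and up to 4 abundant examples per list. The remaining members are given by value, except 1 gene that is counted but not reported here. Entrez identifiers matched RefSeq (GRCm38.p6) symbols for 8317 genes and for all 47 members, and were used for names and chromosomes. Alternatives were 4 scalings, pseudocounts, a higher minimum, and other thresholds. Tests ran in scipy 1.17.1 under Python 3.11.15, tables in pandas 2.3.3 (numpy 2.4.6), and plots in matplotlib 3.10.9.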

Additional observations from a re-analysis of the deposited data

How the results depend on the processing

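No paired analysis was possible because there was 1 library per group. The 4 scalings moved every ratio alike. The median log2 ratios, in the order sum of the listed genes, TMM, median ratio and upper quartile, were 0.22, 0.23, 0.18 and 0.21 over all 47 genes, 0.22, 0.23, 0.18 and 0.22 for carriers, 0.36, 0.37, 0.32 and 0.35 for import, -0.51, -0.51, -0.56 and -0.52 for channels, and 0.20, 0.20, 0.15 and 0.19 for dynamics. Under each of the 4, 12 genes were called higher in place of 17, with 8 carriers in place of 10, 3 import genes in place of 5 and 1 dynamics gene in place of 2. Called lower were 4 genes in place of 2, 3 of them carriers in place of 1 (Slc25a25 and Slc25a44 were added). The calls lost under each scaling were those of Tomm40, Opa1, Slc25a38, Timm9 and Slc25a34, and no called gene changed direction. The shares of all listed genes moved too. Under TMM scaling, those past 1.5-fold went from 34.4% to 23.9% upward and from 15.3% to 23.8% downward. With a fold threshold of 2, 11 genes were called higher and 1 lower, with 0 carriers lower, 3 import genes higher and 1 dynamics gene higher. By the fold alone, 2 carriers were lower. A pseudocount of 1 TPM ended the call of Slc25a38 (log2 ratio 0.58) and took the log2 ratio of Vdac2 to -4.61. Pseudocounts of 0.1 TPM and a minimum mean of 5 TPM moved no count of calls by over 1.5 times. Of alternatives added after the values were seen, the summed levels under TMM scaling had log2 ratios of 0.31 for all genes, 0.42 for carriers, 0.28 for import, -0.41 for channels and 0.31 for dynamics. Without Slc25a10 and Slc25a39 they were 0.22 for all genes and 0.077 for carriers. The medians of oxidative phosphorylation and mitochondrial ribosomal proteins under TMM scaling were 0.47 and 0.15. A packaged count test with an assumed variation between samples, which had been planned, was not run. Variation between mice is therefore outside every interval given, and genes under 50 reads are limited by depth.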

Other observations

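By RefSeq's current symbols, 3 further listed genes belong to the same families under older names. AI132487, now Slc25a47, a liver-specific carrier of this family, had 3043 reads in the normal and 5075 in the diabetic library, 1.27-fold higher and not called. Mcart1, now Slc25a51, the carrier of NAD into the matrix, had 111 and 245 reads and was called higher at 1.68-fold. The import gene 1700034H14Rik, now Timm21, had 152 and 267 reads and was 1.34-fold higher without a call.

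The leptin receptor gene Lepr, which is mutated in db/db mice, lies on chromosome 4, as do 3 of the 47 genes. Slc25a34 and Slc25a33 had the highest and the lowest log2 ratio of the carriers, 2.46 on 4 and 29 reads and -1.91 on 17 and 6 reads, and Mfn2 had a log2 ratio of 0.27. Whether their position bears on these values was not tested.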
